A study of Mus musculus with 384 samples.

Results

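Ikzf1, Bcl11a, Mef2c, Spi1, Hhex and Tcf3 are transcription factors of early lymphoid progenitors, and the series measured them in single common lymphoid progenitors (CLPs), the bone marrow cells from which B, T, natural killer and dendritic cells can arise. They were taken by name as 6 of the 96 TaqMan assays of the panel, where the Tcf3 assay is called TCF3E2A and is given under that name here. They had been put forward as factors shared by nearly all CLPs. That held for 4 of the 6: Ikzf1, Bcl11a, Mef2c and Spi1 each gave a product in at least 95% of cells, while Hhex was found in 72.6% ± 8.7 and TCF3E2A in 35.7% ± 3.8 of cells (SD, n = 4 plates).

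Spi1 encodes PU.1, an ETS factor whose dose weighs on the choice between myeloid and lymphoid fates. Ikzf1 encodes Ikaros, a zinc finger factor needed for lymphoid development, and Bcl11a is a zinc finger repressor without which B cells do not form. Mef2c is a MADS-box factor of lymphoid priming, Hhex is a homeobox factor required in early lymphopoiesis, and Tcf3 encodes the E2A proteins, E proteins that act upstream of Ebf1. Ebf1 and Pax5 are the factors that specify and commit the B lineage, and Ly6d is a surface protein that marks CLPs with B cell bias.

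All cells were wild-type C57/Bl6 bone marrow cells, sorted as Lin- B220- Flt3+ Il7r+ Kitlow Sca1low. The 4 plates, P0 to P3, each held 90 single cells beside 4 control wells that received no reverse transcriptase (no-RT) and 1 well each of 10 and of 20 cells. The labels do not say whether plates came from separate animals, so p-values measure only the spread between these plates, which may be technical. Values are Ct, the PCR cycle of detection, so that a later cycle stands for less cDNA, and 40 stands for no product. A product was a Ct below 28. Levels are given as ΔCt, the Ct minus the mean Ct of Hprt, Atp5a1 and Tfrc in the same well, so a higher ΔCt is a lower level.

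Quality control left out 13 of the 360 cells, which kept 86 on P0 and 87 on each of the other plates, and 340 of the kept cells had all 3 references and a ΔCt. Kept cells had products for 22 to 54 of the 96 assays, with a median of 43. Of the gate's genes Flt3, Il7r, Kit and Ly6a, 1 was measured: Kit, the stem cell factor receptor, was found in 97.4% ± 1.1 of cells. Of the 4 T cell markers measured, Cd3e and Cd2 were found in no cell, Cd4 in 10.9% ± 3.5 and Cd5 in 9.78% ± 6.2 of cells. On P0 and P1, 4 kept cells had reference genes later than cycle 17, with mean reference Ct values of 18.8, 20.5 and 25.7 on P0 and 22.9 on P1. The 10-cell well of P0 stood apart, with a mean reference Ct of 25.8 and products for 29 assays against 68 to 71 in the other 10-cell wells.

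Each of the 6 factors was free of product in the no-RT wells (0 of 16 for each, which allows a share of up to 18.8%, counting error only). Ikzf1 was found in 100%, 100%, 100% and 98.9% of cells on P0 to P3, so that 1 kept cell lacked it. Spi1 was found in 96.5%, 100%, 98.9% and 100%, so that 4 cells lacked it. No plate fell below 95% for either gene. Bcl11a was found in 100%, 98.9%, 96.6% and 97.7% of cells, with 6 cells lacking it. Mef2c was found in 100%, 98.9%, 96.6% and 90.8%, with 12 cells lacking it. Mef2c was thus the least regular of these 4, with P3 as its lowest plate. Together, these 4 factors were found in the same cell in 330 cells, 95.1% ± 3.4 (SD, n = 4 plates).

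The other 2 factors divided the population. Hhex was found in 67.4%, 78.2%, 81.6% and 63.2% of cells on P0 to P3, and 95 cells lacked it. TCF3E2A was found in 30.2%, 36.8%, 36.8% and 39.1%. P1 and P2 were the high plates for Hhex, whereas TCF3E2A was lowest on P0. All 6 factors were found in 27.4% of cells, 5 of them in 50.7% and 4 in 19.6%. Cells without an Hhex product had a median of 34 other products and a median reference Ct of 13.87, against 35 and 13.42 in cells with it. For TCF3E2A the medians were 35 and 13.52 without it against 36 and 13.52 with it. Assay sensitivity is not known, and its part in these shares was not tested.

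**Figure D1:**
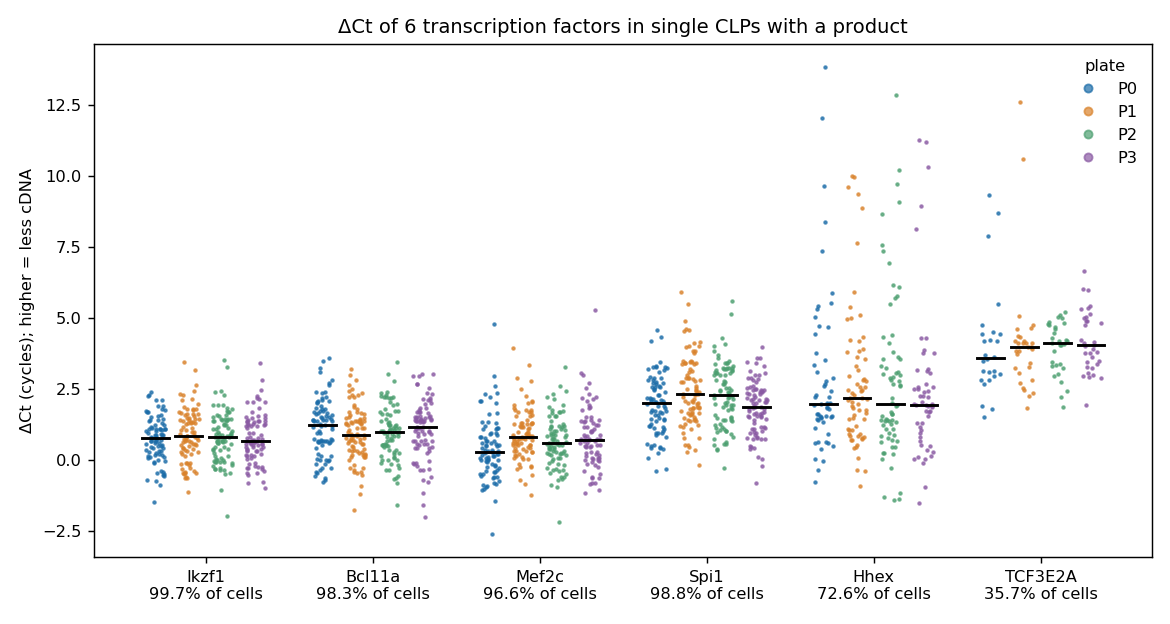
ΔCt (cycles) of each transcription factor in each single CLP with a product and all 3 references, by plate P0 to P3; the bar is the plate's median and the percentage is the mean share of kept cells with a product. Ikzf1, Bcl11a, Mef2c and Spi1 form compact clouds, while 26 Hhex values lie over 4 cycles above their plate's median.

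Spi1 had median ΔCt values of 1.97, 2.30, 2.26 and 1.86 cycles on P0 to P3, and a mean of 2.11 ± 0.28 (SD over 4 plates). P1 and P2 held the lower Spi1 levels. Ikzf1 had medians of 0.75, 0.83, 0.81 and 0.66 cycles and a mean of 0.79 ± 0.06, the closest agreement between plates among the 6. Mef2c had medians of 0.28, 0.79, 0.57 and 0.70 cycles and a mean of 0.68 ± 0.22, with P0 as the plate of highest level. Bcl11a had medians of 1.22, 0.88, 0.97 and 1.16 cycles and a mean of 1.01 ± 0.10. Hhex had medians of 1.95, 2.17, 1.95 and 1.94 cycles and a mean of 2.75 ± 0.17, above its medians. TCF3E2A, where a product was present, had medians of 3.57, 3.95, 4.12 and 4.03 cycles and a mean of 4.07 ± 0.11. Assays can differ in efficiency, so these values are not set against each other as transcript numbers.

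The spread between cells set the broadly found factors apart from Hhex. The SD of ΔCt between cells of a plate was 0.86 ± 0.05 cycles for Ikzf1, 0.98 ± 0.05 for Bcl11a, 0.99 ± 0.11 for Mef2c and 1.09 ± 0.12 for Spi1 (mean ± SD over 4 plates). These lay at the low end of the panel, where the 11 other assays found in at least 95% of cells ranged from 0.90 (CD45RA) to 1.44 cycles (Cd53) with a median of 1.15. The SD of Hhex was 2.75 ± 0.19 cycles, and it was 2.89, 2.49, 2.88 and 2.74 on P0 to P3. Among the 21 other assays found in 50% to 95% of cells, the SD ranged from 1.06 (Cxcr4) to 2.80 (Cd68). Their median was 1.46, so Hhex lay near their upper end. Of these, Cxcr4 gave a product in 13 no-RT wells, CDw199 in 14, Nfil3 and Fut4 in 12 each and Cd68 in 11. Among those without a product in any no-RT well, the widest by SD was Gfi1 at 2.35 cycles, below Hhex. TCF3E2A had an SD of 1.52 ± 0.62 cycles, with values of 1.94 and 2.16 on P0 and P1 and of 0.91 and 1.07 on P2 and P3.

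Hhex had late values on every plate. On P0 its ΔCt ran from -0.80 to 13.81 cycles, on P1 from -0.93 to 9.97, on P2 from -1.44 to 12.84 and on P3 from -1.54 to 11.25. Counted against the plate's median, 5, 6, 10 and 5 cells on P0 to P3 were more than 4 cycles later, 26 in all (10.5% of the cells with a product), and no cell was 4 cycles earlier. TCF3E2A had 5 such cells (4.10%), 3 on P0 and 2 on P1, Mef2c had 2 (0.608%) and the other 3 factors had none. The interquartile range, which such cells move less than the SD, was 2.36 ± 0.32 cycles for Hhex. Among the other factors it ran from 1.11 ± 0.17 for Mef2c to 1.6 ± 0.22 for Spi1. By this range Hhex was not the widest of the assays free of product in no-RT wells. Ly6d (3.10 cycles, found in 70.3% of cells) and Ebf1 (2.69 cycles, 73.8%) were wider.

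**Figure D2:**
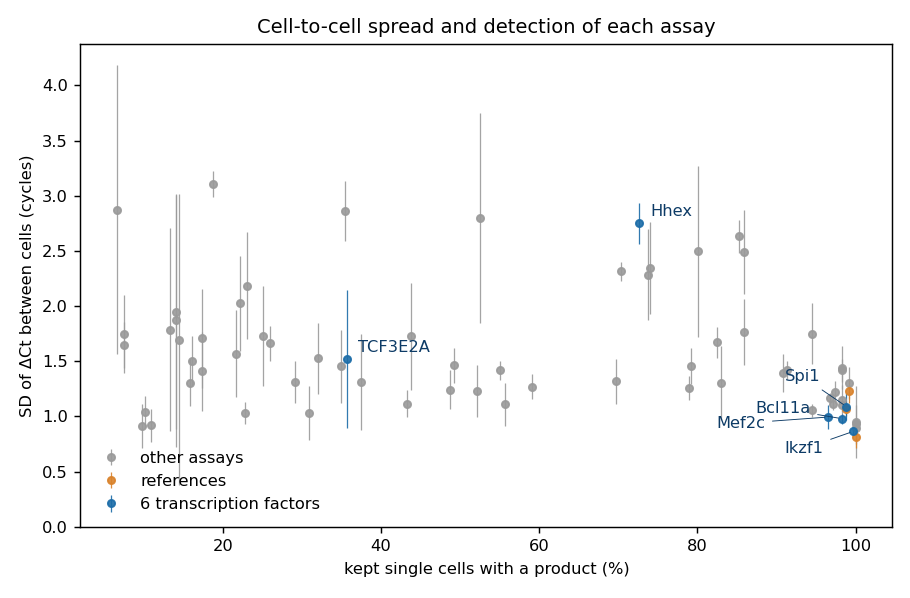
SD of ΔCt between cells (cycles, mean over 4 plates, bars are the SD over plates) against the share of kept cells with a product, for the assays found in at least 5% of cells. Of these 73 assays, CD284 has no mean SD over the plates and is not drawn. Ikzf1, Bcl11a, Mef2c and Spi1 sit at the right-hand end between 0.86 and 1.09 cycles, and Hhex lies at 2.75 cycles; each reference is set against the other 2.

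Levels in wells of 20 cells did not differ from the average of the single cells beyond the spread of the plates. The ΔCt of the 20-cell wells on P0 to P3 was 0.88, 1.04, 0.86 and 0.55 cycles for Ikzf1, where the average cell of each plate stood at 0.89, 1.03, 0.96 and 0.89. For Hhex the 20-cell wells gave 2.01, 2.20, 2.66 and 2.18 cycles against 2.54, 2.36, 2.22 and 2.34 for the average cell. For TCF3E2A they gave 4.84, 5.84, 5.80 and 6.43 against 5.48, 5.31, 5.73 and 5.51. Here the average cell includes cells with no product at 0, which is why TCF3E2A stands later than among cells with a product. Over the 6 factors the difference (20-cell well minus average cell) ran from -0.11 cycles for Ikzf1 (95% interval -0.50 to 0.27) to 0.22 for TCF3E2A (-0.55 to 0.99). None of the 6 passed limma with Benjamini-Hochberg adjustment at 0.05 (adjusted p from 0.949 to 0.973), and neither did any of the 60 assays tested (0%). At an unadjusted p under 0.05 it was 0 of the 6 and 2 of the 60 assays (3.33%). All 6 factors gave a product in 4 of 4 wells of 20 cells. In wells of 10 cells TCF3E2A was found in 3 of 4 and the others in 4 of 4, and the missing product was on P0.

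**Figure D3:**
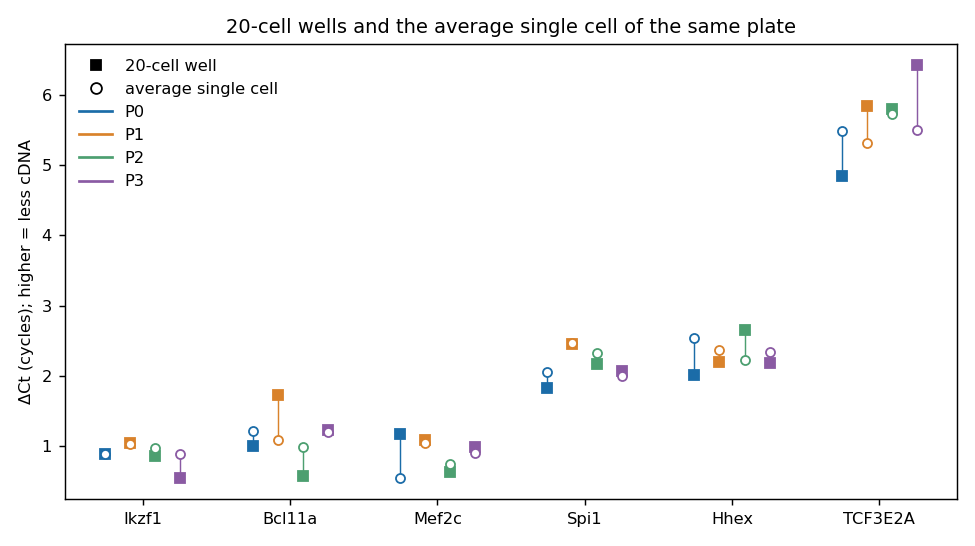
ΔCt (cycles) of the 20-cell well (squares) and of the average single cell (open circles) of the same plate, for each of the 6 factors. The paired points lie within 1 cycle of each other, and none of the 6 differences passed the test.

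Across single cells the ΔCt of the 4 broadly found factors correlated to a moderate degree. Over cells of a plate, Pearson's r of ΔCt between Ikzf1 and Mef2c was 0.41, 0.56, 0.52 and 0.43 on P0 to P3, the highest mean of the 15 pairs (0.48 ± 0.07, SD over plates). Between Ikzf1 and Bcl11a it was 0.48, 0.29, 0.33 and 0.43, and between Bcl11a and Spi1 0.39, 0.34, 0.42 and 0.38. The other 3 pairs of these factors had means of 0.33 to 0.36, and all 6 pairs were above 0 on all 4 plates, over 77 to 86 cells a plate. These coefficients describe cells that share a plate, a pre-amplification and the reference term of ΔCt. Over the 55 pairs of other assays found in at least 95% of cells, the median of the same measure was 0.34, so the mean of 0.38 over the 6 pairs was close to that of the panel.

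Hhex moved with none of the others to that degree. Its 5 pairs had mean r from 0.07 (with Bcl11a) to 0.20 (with Mef2c), and on P0 it was -0.04 with Ikzf1, -0.09 with Spi1 and -0.03 with TCF3E2A. By ranks (Spearman), which weigh its late cells less, the 5 means rose to between 0.15 and 0.33. TCF3E2A, in the 26 to 34 cells a plate that held both products, had mean r of 0.44 ± 0.09 with Ikzf1, 0.42 ± 0.13 with Spi1, 0.24 ± 0.13 with Mef2c and 0.20 ± 0.21 with Bcl11a. With Bcl11a it ranged from -0.06 on P1 to 0.44 on P2.

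The size of these correlations depended on the reference. Without any reference, the mean r of the 6 pairs of broadly found factors was 0.60, and 0.40 when the 4 cells with late references were left out. On P0 it fell from 0.77 to 0.32 and on P1 from 0.67 to 0.33. As residuals on the mean reference Ct, the same 6 pairs had means of 0.25 to 0.42. With the mean of all assays found in at least 95% of cells as the reference, the mean over all 15 pairs was 0.086, against 0.28 ± 0.04 with the 3 reference genes. The mean reference Ct itself varied between cells with an SD of 1.33 ± 0.42 cycles.

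**Figure D4:**
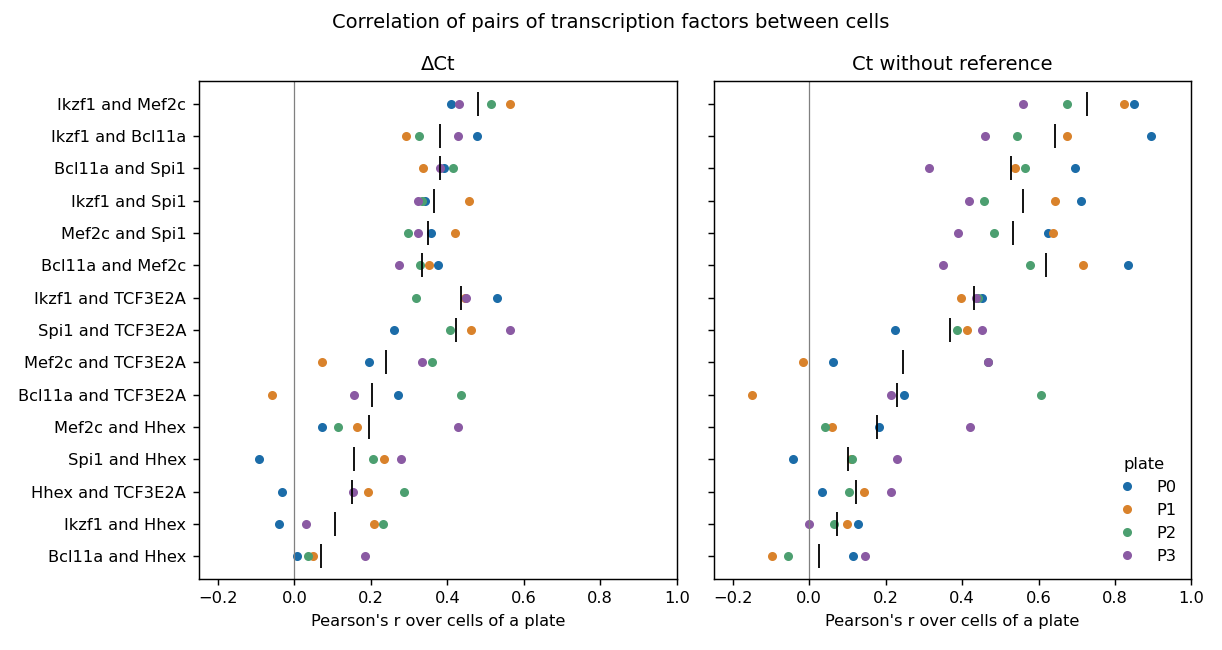
Pearson's r over the cells of a plate for each of the 15 pairs of factors, from ΔCt (left) and from Ct without a reference (right); points are plates P0 to P3 and the bar is their mean. On the left the 6 pairs of Ikzf1, Bcl11a, Mef2c and Spi1 lie to the right of 0 on every plate, and the 5 pairs with Hhex have means from 0.07 to 0.20.

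Among the 32 assays that were neither factors of this set nor references and were found in at least 50% of cells, the one most like Spi1 was Cd53, a tetraspanin of leukocytes. Their ΔCt correlated at 0.70, 0.84, 0.81 and 0.76 on P0 to P3 (mean 0.78 ± 0.06), the highest value for any of the 6 factors, and the mean was 0.84 without a reference. After Cd53 came Cd180 (mean 0.50), a Toll-like receptor homologue of B cells, and CD45RA (0.50), an isoform of the leukocyte phosphatase. CD45RA was the closest assay to Ikzf1 (0.58 ± 0.07), to Mef2c (0.55 ± 0.07) and to Bcl11a (0.47 ± 0.06). The next were H2-K1 (0.52) and Cd244a (0.45) for Ikzf1, Ly86 (0.45) and Selplg (0.44) for Mef2c, and Tnfrsf1a (0.41) and Ly86 (0.40) for Bcl11a. For Hhex the highest values were low, with CD278 at 0.22 and Ly86 at 0.21. For TCF3E2A, over 15 to 34 cells a plate, they were CD278 (0.46), CD45RA (0.42) and Il4ra (0.41).

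Cells were then divided by whether they held a product of Ebf1, of Ly6d or of Pax5, which were found in 73.8% ± 6.0, 70.3% ± 4.6 and 25.9% ± 2.0 of kept cells. The difference in mean ΔCt (with minus without the product) was taken within each plate among cells that held the factor, and all assays with at least 5 such cells on both sides of every plate were fitted together with limma and adjusted by Benjamini-Hochberg, with 0.05 as the threshold.

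With or without Ebf1, the 6 factors did not separate. Spi1 stood at 1.80, 2.34, 2.16 and 1.93 cycles on P0 to P3 in cells with Ebf1 and at 2.34, 2.65, 2.48 and 1.46 in cells without, so 3 plates differed one way and P3 the other. TCF3E2A was at 3.95, 4.24, 3.77 and 4.07 cycles with Ebf1 and at 4.26, 3.96, 4.27 and 4.57 without. Its fitted difference was -0.26 cycles (95% interval -0.71 to 0.19, adjusted p = 0.50 in limma), the largest of the 6. None of the 6 passed in limma where 4 of 45 assays did (8.89%), and none had an unadjusted p under 0.05 where 33.3% of assays did. The median absolute difference was 0.18 cycles over the factors and 0.25 over all assays. Those that passed included FOX01, as the assay of the forkhead factor is named (-1.51 ± 0.20 cycles, SE, adjusted p = 0.003), and the progenitor antigen Cd34 (1.21 ± 0.18, adjusted p = 0.003). The sign of the factors' differences depended on the reference. Without a reference, those of Ikzf1, Bcl11a, Spi1, Hhex and TCF3E2A turned from below 0 to between 0.04 and 0.28 cycles, and none of the 6 passed.

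With Ly6d the picture was the same, with 0 of 6 factors past the threshold in limma against 8 of 46 assays (17.4%), and 0 against 26.1% of assays unadjusted. Mef2c came nearest: it was at 0.42, 1.05, 0.69 and 1.00 cycles in cells with Ly6d and at 0.37, 0.43, 0.54 and 0.18 in cells without. All 4 plates differed in that direction, but the fitted 0.41 cycles (-0.04 to 0.86) had an adjusted p of 0.213. Ikzf1, Bcl11a and Spi1 differed by -0.10, 0.16 and 0.09 cycles. Hhex differed by -0.24 (-0.70 to 0.22) and TCF3E2A by -0.31 (-1.01 to 0.39), with intervals wide enough to hold shifts of most of 1 cycle. These differences depended on the processing. With Hprt and Atp5a1 alone as references, Mef2c differed by 0.17 cycles (limma, adjusted p = 0.544), Bcl11a by -0.09 and Spi1 by -0.15. With missing products counted at Ct 28, Mef2c differed by -0.08.

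Mef2c was lower in cells with Pax5, with a later ΔCt. Mef2c stood at 0.76, 1.30, 0.74 and 1.31 cycles on P0 to P3 in cells with Pax5 and at 0.29, 0.78, 0.61 and 0.56 in cells without, a difference of 0.47 ± 0.13 cycles (SE; 95% interval 0.13 to 0.81; limma, adjusted p = 0.048). ΔCt was higher with Pax5 on 4 of 4 plates, least on P2 at 0.13. Mef2c was the 1 factor of 5 tested to pass, where 14 of 42 assays did (33.3%), so the factors passed no more often than the panel. Unadjusted, 2 of 5 did (Mef2c and Spi1) beside 45.2% of assays. The call is fragile: it was lost without P0, without P1 and without P3 (0.47, 0.45 and 0.37 cycles, adjusted p = 0.130, 0.161 and 0.109). It was lost with a smaller difference when medians over cells were taken (0.30 cycles, adjusted p = 0.252) or missing products counted at Ct 28 (0.27 cycles, adjusted p = 0.463). Over the 17 alternatives the difference ran from 0.27 to 0.62 cycles and the adjusted p from 0.012 to 0.463, with 8 of them under the threshold. The alternatives are not all separate checks. In the Ebf1 and Ly6d comparisons, the factors' differences were unchanged without quality control of cells and with a product below Ct 40.

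Spi1 went the other way. It was at 1.68, 2.10, 1.97 and 1.67 cycles in cells with Pax5 and at 1.99, 2.53, 2.37 and 1.88 in cells without. Its ΔCt was thus lower, and its level higher, with Pax5 on 4 of 4 plates. The difference of -0.34 ± 0.10 cycles (SE; -0.60 to -0.08) just missed the threshold in limma (adjusted p = 0.050; 0.032 to 0.690 over the 17 alternatives). Ikzf1 and Bcl11a differed by 0.05 (-0.22 to 0.31) and -0.16 (-0.50 to 0.18). Hhex was at 2.42, 3.26, 1.59 and 3.48 cycles with Pax5 and at 3.05, 2.62, 3.23 and 2.19 without, so that plates disagreed in sign and the interval ran from -1.34 to 1.16. TCF3E2A was not tested here, since a plate had fewer than 5 cells with both products.

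Other measures moved with Pax5 as well. Of 15 measured genes of a list of B lineage and early lymphoid genes, 8 could be tested. Of these, 6 passed the threshold with lower ΔCt in cells with Pax5 and none with higher, beside 33.3% of all assays. Among them were Ebf1 (-2.55 ± 0.24 cycles, SE), FOX01 (-1.94 ± 0.16) and Ly6d (-1.77 ± 0.21). Of 17 measured genes of a list of other transcription regulators, 8 were tested, and 3 passed with lower ΔCt and 1 with higher. Ebf1 and FOX01 are in both lists. The median difference was -0.18 cycles for the regulators and -0.14 for all assays. Cd34 was 2.52 ± 0.26 cycles later. The 2 myeloid markers that gave no product in no-RT wells, Csf3r and Csf1r, summed to 0.21 to 0.43 products per cell with Pax5 and 0.77 to 0.95 without, over plates. The number of other products differed by -0.31 ± 1.26 and the mean reference Ct by 0.15 ± 0.43 cycles (SD over plates). With the number of other products as a covariate, the Mef2c difference was as large (0.47 cycles, limma, adjusted p = 0.038). Without a reference it was 0.62 cycles (limma, adjusted p = 0.054). The part of the marker genes in it was not tested.

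Narrower comparisons used all or nearly all of these cells with Pax5 (86 in the first and 83 in the second). Against cells with none of Ebf1, Ly6d and Pax5 (10 to 21 cells a plate), Mef2c differed by 0.09, 0.71, 0.32 and 1.15 cycles on P0 to P3, a fitted 0.57 (0.01 to 1.13, adjusted p = 0.117 in limma). None of 5 factors passed there beside 9 of 32 assays (28.1%), and 1 of 5 did unadjusted beside 40.6% of assays. Within cells that held both Ebf1 and Ly6d, Mef2c differed by 0.52, 0.35, 0.13 and 0.61 cycles with Pax5, a fitted 0.40 (0.07 to 0.73, adjusted p = 0.074 in limma). Spi1 differed there by -0.18, -0.50, -0.20 and -0.39 cycles (-0.62 to -0.02, adjusted p = 0.108). None of 5 passed beside 13 of 42 assays (31%), and 2 of 5 did unadjusted beside 38.1%. Because these comparisons share cells, their like directions are not separate evidence.

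**Figure D5:**
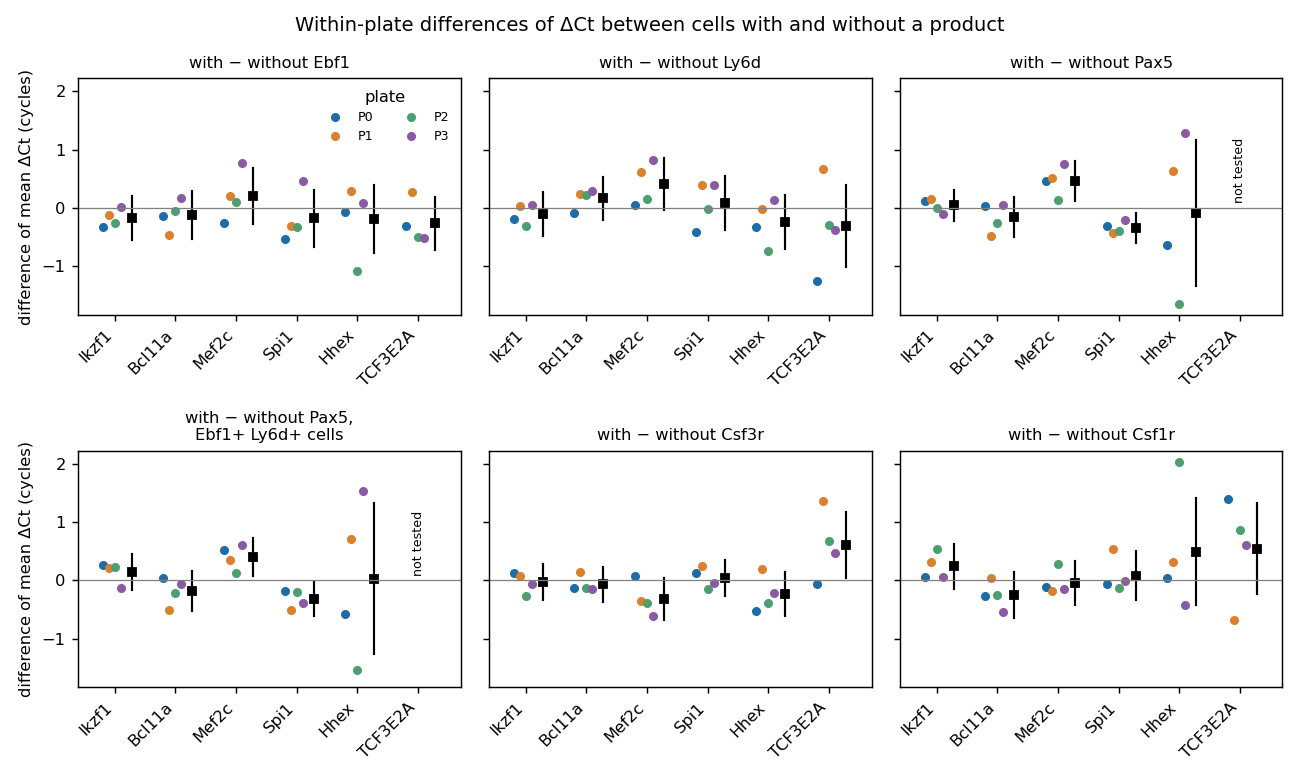
Difference in mean ΔCt (cycles) between cells with and without the product named above each panel, by plate (coloured points, P0 to P3), with the limma estimate (square) and its 95% interval (line, not adjusted for multiple tests). Mef2c lies above 0 and Spi1 below 0 on every plate in the Pax5 panel, and the intervals of Hhex there are the widest; TCF3E2A was not tested in the Pax5 panels.

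Csf3r and Csf1r, the receptors of the granulocyte and macrophage growth factors, were found in 48.7% ± 4.1 and 22.2% ± 2.1 of cells and divided the cells on the myeloid side. With Csf3r, TCF3E2A stood at 4.01, 4.67, 4.21 and 4.42 cycles against 4.06, 3.31, 3.54 and 3.95 without, later on 3 of 4 plates. The fitted 0.61 cycles (0.05 to 1.18) had an adjusted p of 0.133 in limma, and 0.036 without P0, where the difference was -0.05 and the fit without it 0.83. Mef2c was at 0.44, 0.74, 0.45 and 0.46 cycles with Csf3r and at 0.37, 1.10, 0.84 and 1.07 without (-0.32, -0.68 to 0.04, adjusted p = 0.206). None of 6 factors passed in limma beside 10 of 51 assays (19.6%), and 1 of 6 did unadjusted beside 31.4%. With Csf1r the fitted differences of the 6 ran from -0.25 cycles for Bcl11a (-0.64 to 0.14) to 0.55 for TCF3E2A (-0.23 to 1.32). None of 6 passed in limma, and neither did any of 43 assays (0%), with 0 of 6 and 8 of 43 assays (18.6%) unadjusted.

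For Hhex and TCF3E2A the state comparison was also made on whether a product was present. Hhex was found in 75.4% ± 6.7 of cells with Ebf1 and 63.8% ± 17.7 without, in 75.5% ± 10.8 with Ly6d and 66.2% ± 4.7 without, and in 71.9% ± 14.3 with Pax5 and 73.0% ± 7.4 without (SD, n = 4 plates). TCF3E2A was found in 34.9% ± 5.6 with Ebf1 and 38.8% ± 6.5 without, in 34.2% ± 7.0 with Ly6d and 38.9% ± 4.2 without, and in 36.3% ± 16.2 with Pax5 and 35.4% ± 3.1 without. The shares of the plates overlapped between the sides in each case, but within plates Hhex was found more often with Ebf1 and with Ly6d on 4 of 4 plates. On P0 to P3 its share with Ebf1 was 69.1%, 79.7%, 82.5% and 70.1%, against 61.1%, 73.9%, 80% and 40% without. With Ly6d it was 70.2%, 80.3%, 87.9% and 63.5%, against 62.1%, 71.4%, 69.0% and 62.5% without. These odds did not pass the test over all pairs of genes (log2 odds ratios of 0.77 and 0.75, adjusted p = 0.441 and 0.447 in limma). TCF3E2A in cells with Pax5 ranged from 18.2% on P0 and 27.3% on P1 to 47.6% on P2 and 52% on P3, so that the plates did not share a direction. As log2 odds ratios per plate with 0.5 added to each count, tested with limma over 1176 pairs of 49 genes, 54 pairs passed (4.59%; 16.9% unadjusted). None of the 48 pairs with Hhex did (7 unadjusted), and none of the 48 with TCF3E2A (6 unadjusted). The nearest was Hhex with Cd244a, a receptor of natural killer and progenitor cells, at 2.21 (0.89 to 3.53, adjusted p = 0.066), with odds ratios of 0.84, 4.75, 1.75 and 1.49 on the log2 scale on P0 to P3. Since Cd244a was found in 90.8% of cells, few cells lay on the side without it. On that side Hhex was found in 55.6%, 12.5%, 60% and 40% of cells, against 68.8%, 84.8%, 82.9% and 66.2% with Cd244a. Hhex and TCF3E2A themselves were found together in 98 cells, where 90.2 would follow from their shares on each plate, with a log2 odds ratio of 0.67 (-0.35 to 1.68, adjusted p = 0.533).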

How the data were processed

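Ct values were deposited by the authors without normalization, as 1 table of 96 assays by 384 wells, per the file headers. Sorted cells were lysed and frozen, and their cDNA was pre-amplified with the TaqMan assays and read on a Fluidigm chip, per the labels' protocols. The threshold behind a Ct is not given in the sources used here. Kept cells had a product for over 50% of the 3 references and for no fewer than 50% of the assays of their plate's median cell. Fits used limma 3.58.1 in R 4.3.3, intercept only, on 4 within-plate differences, with Benjamini-Hochberg adjustment over all assays that entered. The references were not tested, and the fit was tested on simulated data. The plate pairs both sides of each comparison. Of the assay names, 47 matched a symbol and 34 a synonym in a RefSeq gene table, and 15 were kept as deposited. Named beside the factors are the 3 most alike assays of each, among those in at least 50% of cells, and up to 3 passing assays in each direction of a comparison. The factors, lists and rules were chosen with earlier results of these data known, and the co-detection test and the setting without late cells were added after the values were seen. An assay that this rule takes is not reported here.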

Additional observations from a re-analysis of the deposited data

Results flagged for a closer look

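Of the sets of 4 plate or well values examined, 12 (11.9%) had 1 value set apart from the other 3 by more than 0.829 of the range. Chance gives about 1 in 20 in separate sets, but these sets share wells and cells. The 10-cell well of P0 alone gave several of the 12. In the 10-cell well of P0, the Ct was 26.2 for Ikzf1, 26.6 for Bcl11a, 26.0 for Mef2c, 26.5 for Spi1 and 40 for TCF3E2A, against 9.52 to 16.1 in the other 3 wells. Ikzf1 was found in 98.9% of cells on P3 and in all cells elsewhere. The correlation of Ikzf1 and Spi1 was 0.46 on P1. In the comparison of cells with and without Pax5 among those with Ebf1 and Ly6d, Ikzf1 differed by -0.14 cycles on P3 and by 0.22 to 0.26 on the others. With Csf3r, Bcl11a differed by 0.14 cycles on P1 and by -0.14 to -0.13 on the others. With Csf1r, Mef2c differed by 0.27 cycles on P2 and Spi1 by 0.54 on P1. The log2 odds ratio of Hhex and Csf1r was -1.47 on P1 and -0.53 to -0.42 on the others.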

How the results depend on the processing

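The number of factors past the threshold with Pax5 (1) became 0 with Hprt and Atp5a1 as references, without a reference, with missing products counted at Ct 28, with medians over cells, with 3 cells as the minimum and with no plate pairing (no replicate block, Mef2c adjusted p = 0.104); it became 2 with the number of other products as a covariate and with robust limma-trend, and ranged from 0 to 1 without 1 plate. Against cells with none of the 3 products it became 1 with all assays in at least 95% of cells as reference (Mef2c) and with missing products at Ct 28 (Hhex). Within cells with Ebf1 and Ly6d it became 1 with that reference and with robust limma-trend. With Csf3r it became 1 without a reference and ranged from 0 to 1 without 1 plate. Without a reference, all 6 factors passed in 20-cell wells (Bcl11a -4.12, Mef2c -3.97 and TCF3E2A -3.91 cycles), which hold 20 times the cells. All 60 assays tested passed there too, so that count is not particular to the factors. The median spread of the factors, 1.04 cycles, became 1.12 with Hprt and Atp5a1, 0.88 with all assays in at least 95% of cells and 1.40 without a reference. The mean correlation of 0.28 became 0.34, 0.086 and 0.36 under the same settings, 0.32 by ranks and 0.18 as residuals. Co-detection pairs with a factor past the threshold (0, beside 4.59% of all 1176 pairs) became 3 with 1 added to each count, 7 without quality control of cells, and 0 to 1 without 1 plate. The shares of all pairs that passed in those settings are not given here, so these counts are not read as a result about the factors. Leaving out the 4 cells with late references changed no count of factors. Assays past the threshold ranged from 3 to 14 with Ebf1, 4 to 15 with Ly6d, 9 to 18 with Pax5, 0 to 10 with Csf3r and 0 to 5 with Csf1r. They ranged from 7 to 15 for Pax5 against cells with none of the 3 products. Within cells with Ebf1 and Ly6d they ranged from 7 to 14. The share of all assays is not given here setting by setting, so changed counts of factors are not read as a result about the factors. Depth per assay is unknown, a late Ct rests on few molecules, and 4 plates limit the precision.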
